A study of Homo sapiens with 24 samples.

Results

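The 10 genes described here encode the machinery that makes and loads peptides for MHC class I: B2M, TAP1, TAP2, TAPBP, ERAP1, ERAP2, PSMB8, PSMB9, PSMB10 and the transcriptional activator NLRC5. They form a list given by name, with no threshold on a measured value. All 10 were present in each of the 4 tables, among 21306 genes listed for A549, 20707 for H1299 and 60623 each for DMS454 and H1694. RNA was read out in 24 libraries, made from total RNA with a kit that keeps the strand. A549 and H1299, lines of non-small cell lung cancer, were compared as cells overexpressing HEPACAM2 (OE) against control cells labelled WT. DMS454 and H1694, which come from small cell lung cancer and carry neuroendocrine markers, were compared as cells titled CRISPR, with a knockdown genotype, against control cells labelled WT. Each of the 8 groups held 3 libraries, stated to be independent biological replicates, and each line had its own table and normalization. Whether the modified cells were single clones or pools, how overexpression was driven and which guides were used is not stated in the labels. The design sets cells with altered HEPACAM2, a protein of the immunoglobulin superfamily, against their controls.

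MHC class I molecules show short peptides from inside the cell to CD8+ T cells. The proteasome cuts proteins into peptides, and under interferon-gamma its catalytic subunits PSMB5, PSMB6 and PSMB7 are replaced in new particles by PSMB8, PSMB9 and PSMB10, which gives the immunoproteasome. TAP1 and TAP2 together form the transporter that carries peptides into the endoplasmic reticulum, the aminopeptidases ERAP1 and ERAP2 trim them there, and TAPBP (tapasin) holds the empty class I molecule at the transporter. B2M is the light chain shared by all classical class I molecules. NLRC5 is recruited to the promoters of class I genes and raises their transcription, and interferon-induced IRF1 binds interferon response elements in several of them. Small cell lung cancers are known for low surface class I.

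The promoters of these genes were looked up in RefSeq (GRCh38.p14; 250 bases before to 50 after each start), which held 13 promoters for 9 of the 10 genes. NLRC5 had no entry in that table. The letters GAAA, any 2 bases, GAAA, the core of an element bound by interferon regulatory factors, were searched on both strands, and overlapping matches were joined. They occurred in a promoter of 8 of the 9 genes, against 4.38% of the 27305 symbols in the table (3.57% of its 35116 promoters). The matches of these 8 genes are shown in capitals. They include PSMB10, which was not called in H1694 (log2 fold change -0.55 ± 0.38, on 28 and 44 reads). They leave out PSMB9, which fell there. Whether the letters bear on any change described below was not tested. Each line runs 5′ to 3′ along the gene's own strand, so TTTC, any 2 bases, TTTC is the same element read on the opposite strand.

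B2M (chr15:44711353-44711408, plus strand): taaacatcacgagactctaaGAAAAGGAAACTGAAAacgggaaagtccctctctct
TAP1 (chr6:32853803-32853858, minus strand): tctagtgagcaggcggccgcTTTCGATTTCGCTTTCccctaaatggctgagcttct
TAP2 (chr6:32838768-32838817, minus strand): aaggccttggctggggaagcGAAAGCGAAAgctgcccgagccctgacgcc
TAPBP (chr6:33314063-33314118, minus strand): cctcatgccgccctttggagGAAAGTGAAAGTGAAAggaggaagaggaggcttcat
ERAP1 (chr5:96807924-96807953, minus strand): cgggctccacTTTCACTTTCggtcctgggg
ERAP2 (chr5:96876450-96876499, plus strand): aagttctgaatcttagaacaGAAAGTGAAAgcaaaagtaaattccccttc
PSMB8 (chr6:32844032-32844061, minus strand): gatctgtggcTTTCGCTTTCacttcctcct
PSMB10 (chr16:67936842-67936891, minus strand): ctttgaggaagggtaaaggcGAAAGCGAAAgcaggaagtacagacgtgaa

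The match began 144 bases before the start site of B2M, 134 before that of TAP1, 58 before that of TAP2, 30 before that of ERAP2, 21 before that of PSMB10 and 20 before that of TAPBP. In ERAP1 it began at base 3 of the transcribed side, and in PSMB8 it crossed the start site. TAP1, ERAP1, ERAP2 and PSMB8 had 2 listed promoters each, of which 1 held the letters. That was the promoter listed first for TAP1 and ERAP1 and second for ERAP2 and PSMB8. Distances are to the start site of that promoter. B2M, TAP1 and TAPBP held 2 overlapping copies each. PSMB9 had none in its window. It is transcribed away from TAP1, with 488 bases between the 2 starts, and the TAP1 match lies 354 to 369 bases upstream of the PSMB9 start. CCAAT, the letters of the box bound by nuclear factor Y, occurred in 4 of the 9 genes, against 39.7% of symbols, and GGGA, any 2 bases, TTCC, an NF-kB core, in 2 (B2M and TAP1), against 1.97%. A match describes the letters only and is no evidence of binding.

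Values are the deposited normalized counts (reads divided by the authors' size factors), and changes are log2 fold changes ± SE on log2(normalized count + 1) from limma. A gene is said to have risen or fallen where the Benjamini-Hochberg adjusted p over all genes tested in that line was under 0.05. Total reads per library ranged over 15652553 to 30241598 for DMS454, 19682771 to 31770858 for H1694, 16358272 to 29838960 for A549 and 12704476 to 20332419 for H1299. HEPACAM2 had 6074, 5864 and 6084 normalized counts in OE libraries, against 1.10, 0 and 0 in controls of A549, and 27257, 24999.9 and 23710.2 in OE libraries, against 3.49, 3.07 and 2.08 in controls of H1299. In DMS454 it had 11460.0, 11256 and 10844 in the labelled CRISPR libraries, against 6430.1, 6543 and 6677 in the labelled controls, and in H1694 10124, 10545 and 10399 in the labelled CRISPR libraries, against 3433, 3551 and 3688 in the labelled controls. The knockdown genotype in the labels thus goes with more HEPACAM2 mRNA (log2 fold change 0.77 ± 0.038 in DMS454 and 1.54 ± 0.040 in H1694), so that in each line the group named first has the higher level, and directions in DMS454 and H1694 follow the labels. Their sample descriptions add pL to the line's name for the libraries titled CRISPR and G for those titled as controls, and do not explain either. Whether the titles of the 2 arms were exchanged was not tested. Under such an exchange every difference between the arms of DMS454 and H1694, the 9 of 10 genes that fell in H1694 included, would keep its size and turn its sign, and the control levels of these lines would be those of the other arm. The authors' deposited table gives these 2 changes as -0.77 and -1.54, since it divides the labelled control by the labelled CRISPR libraries. In A549 and H1299 the deposited changes of HEPACAM2 are 14.1 and 13.1, with OE divided by control. The group titled as control is thus the divisor in A549 and H1299, but not in DMS454 and H1694. The neuroendocrine markers CHGA and SYP had 10412 to 24987 reads per group in the small cell lines and 4 to 434 in the other 2. VIM had 60438 and 316569 reads in the OE groups, 47599 and 184959 in their controls and at most 17 in a small cell group. The other mesenchymal markers did not divide the lines in this way. ZEB1 had 4870 and 4881 reads in the labelled CRISPR and labelled control groups of H1694, and 218 and 179 in those of DMS454. In A549 and H1299 it had at most 2236 in a group. CDH2 had more reads in every small cell group than in any group of A549 or H1299, and FN1 overlapped between the classes. In H1299, OE replicate 1 and control replicate 1 stood apart, with a median distance from the other 2 libraries of their group of 0.209 and 0.213 on the log2 scale, against 0.136 to 0.148 for the other 4. Labelled CRISPR replicate 3 of DMS454 lay at 0.165, against 0.0814 to 0.119 for the other 5. Values without these libraries are given beside the main results of both lines.

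**Figure D1:**
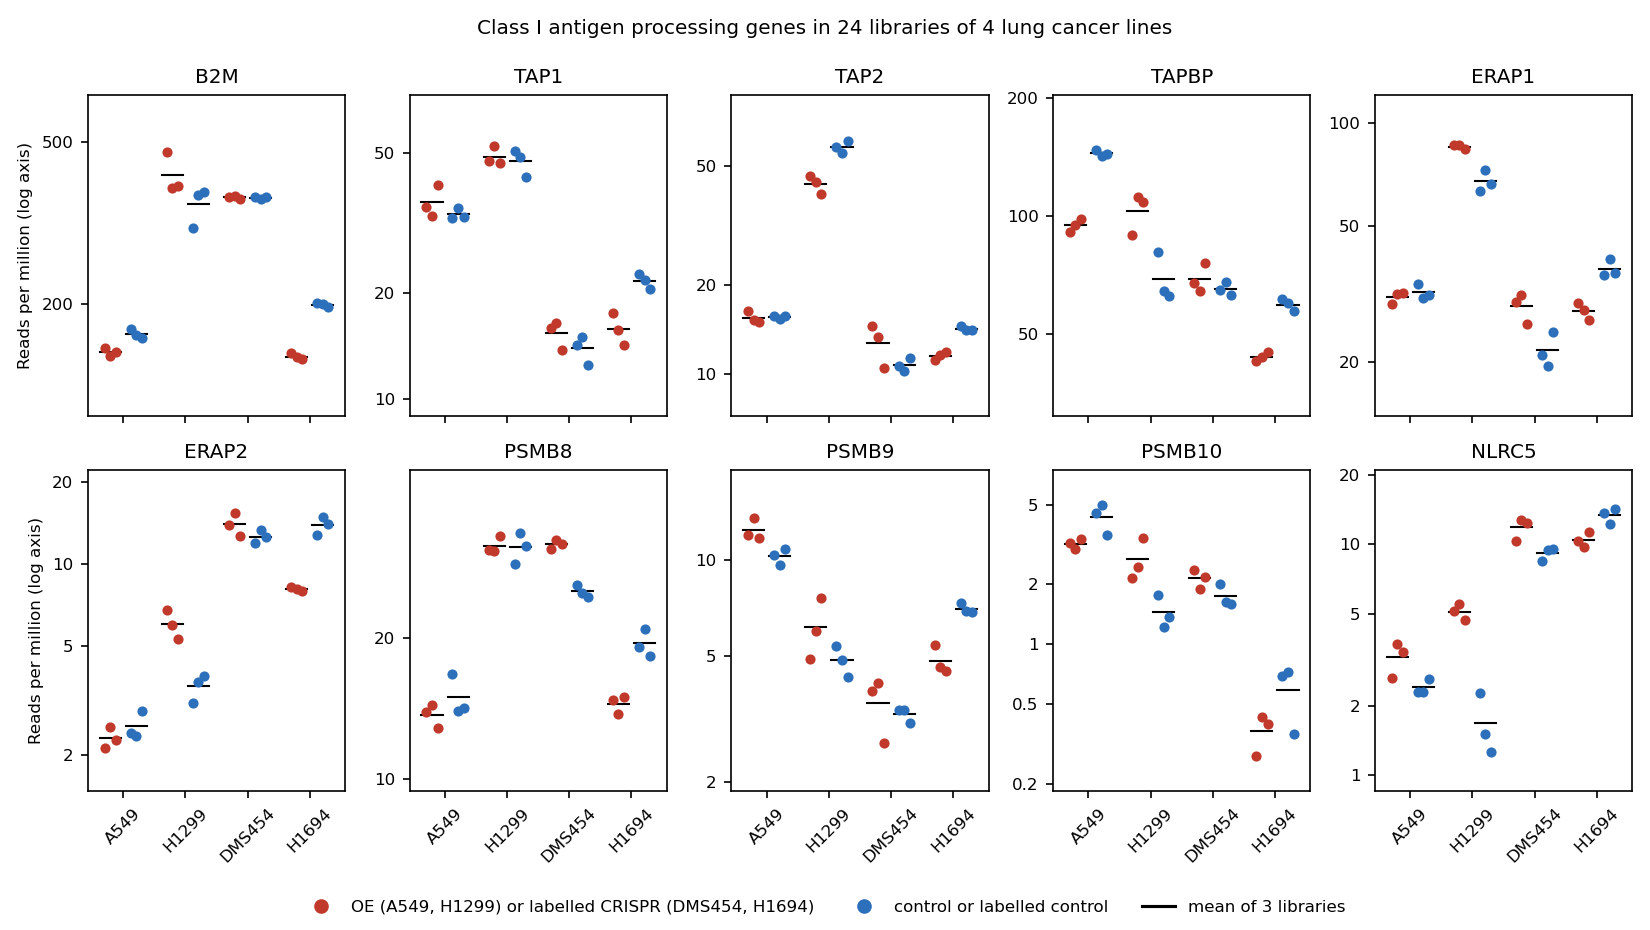
Level of each gene in RPM, reads scaled to a common library total (log axis), in all 24 libraries, with points for single libraries and bars for the mean of 3. In H1694 the points of the labelled CRISPR libraries lie below all those of the labelled controls for every gene but PSMB10, while NLRC5 in H1299 lies higher in all 3 OE libraries than in the 3 controls.

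The counts of risen and fallen genes differed between the 4 lines, and those of A549 and DMS454 lay near the shares over all genes. In A549, 1 of the 10 genes rose with HEPACAM2 overexpression (PSMB9) and 3 fell (TAPBP, PSMB10 and B2M), where 22.5% of all 16707 genes tested rose and 21.9% fell. In H1299, 4 rose (NLRC5, ERAP2, TAPBP and ERAP1) and 1 fell (TAP2), against 13.5% and 15.3% of 16192 genes. In DMS454, 2 rose (ERAP1 and PSMB8) and none fell, against 9.15% and 9.72% of 18868 genes. By edgeR and DESeq2 too none fell in DMS454. In H1694, 9 of the 10 fell and none rose, where 8.9% of all 17780 genes tested fell and 8.73% rose. The count of risen genes there was 0 by edgeR and DESeq2 as well. With H1299 OE replicate 1 and control replicate 1 both left out, 6 of the 10 rose and 1 fell in that line, beside 4383 and 4539 genes in all. Without labelled CRISPR replicate 3 of DMS454, 4 rose there, beside 3159 risen and 3446 fallen genes in all, against 1726 and 1834 with all 6 libraries.

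Counted by whether the 3 libraries of a group all lay on one side of the other 3, 2 of the 10 genes were higher and 3 lower in OE libraries of A549, against 26.1% and 25.7% of all genes. In H1299 5 were higher and 1 lower, against 20.5% and 22.8%. In DMS454 3 were higher and 0 lower, against 18.3% and 18.4%, and in H1694 0 were higher and 9 lower, against 17.4% and 17.6%.

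The median log2 fold change of the 10 genes was -0.40 in H1694, where the median of all genes tested was -0.001. It was -0.08 in A549, 0.25 in H1299 and 0.17 in DMS454, with medians of all genes between -0.002 and 0.002. All 10 genes passed the filter of a mean of 10 normalized counts in 1 group in every line. PSMB10 passed it in H1694 only through the labelled controls. In bulk RNA, fewer cells of a type and less RNA per cell cannot be told apart. The p-values measure the spread between 3 libraries a group.

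**Figure D2:**
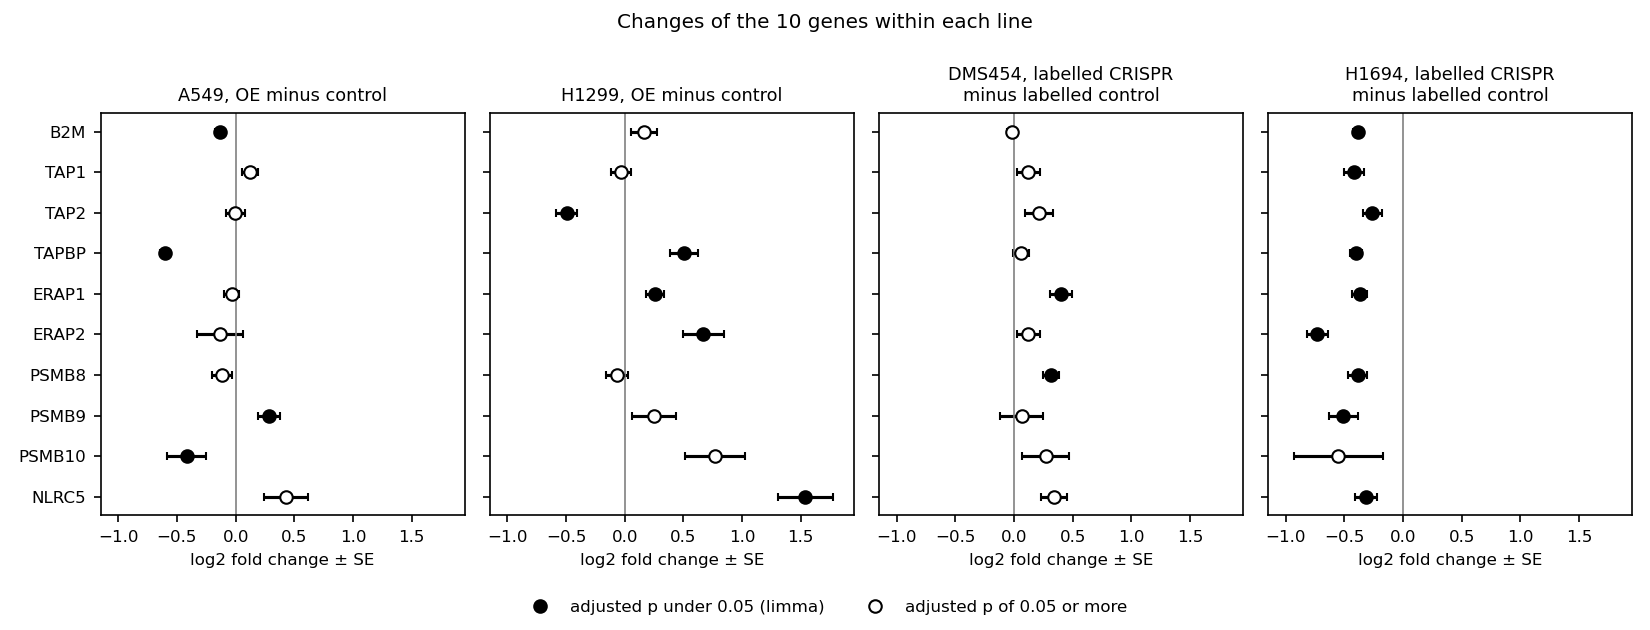
Log2 fold change ± SE of each gene in each line, as OE minus control in A549 and H1299 and labelled CRISPR minus labelled control in DMS454 and H1694. Filled points passed an adjusted p of 0.05; 9 of 10 are filled in H1694, all on the negative side, against 4 in A549, 5 in H1299 and 2 in DMS454.

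NLRC5, the activator of the class I genes, had the largest rise of the 10 in any line, in H1299. It had 87.4, 92.9 and 79.1 normalized counts in OE libraries, against 40.1, 26.6 and 22.9 in controls (log2 fold change 1.54 ± 0.23, adjusted p = 0.00187), so its groups did not overlap and differed by 2.91-fold on the fitted scale. Without both libraries numbered 1 the log2 fold change was 1.76, and the call held under all 14 alternatives. In A549 NLRC5 had 53.2, 73.3 and 68.5 normalized counts in OE libraries, against 45.1, 46.0 and 51.7 in controls. The groups did not overlap there either, but the adjusted p was 0.0557 (log2 fold change 0.43 ± 0.19), with a range of 0.0217 to 0.222 over the alternatives, and it passed without OE replicate 1, at 0.57, and in edgeR, at 0.45. DMS454 was similar, with 220.4, 269.8 and 271 normalized counts in the labelled CRISPR libraries, against 185, 206 and 209 in the labelled controls, no overlap and an adjusted p of 0.0544 (log2 fold change 0.34 ± 0.11). There it passed without labelled CRISPR replicate 1 (0.44) or 3 (0.29) and with a filter at a mean of 50 (0.34), within a range of 0.0368 to 0.176 over the alternatives. H1694 went the other way, with 252, 239 and 278 normalized counts in the labelled CRISPR libraries, against 328, 291 and 341 in the labelled controls (log2 fold change -0.32 ± 0.095, adjusted p = 0.0292). All 3 labelled CRISPR libraries lay below the lowest labelled control, but the call was lost without labelled CRISPR replicate 2 (-0.27) or labelled control replicate 1 (-0.30) or 3 (-0.27), and in DESeq2 (-0.32).

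The interferon-inducible subunits PSMB8, PSMB9 and PSMB10 differed between lines, with PSMB8 and PSMB9 falling in H1694 and no line in which all 3 passed. PSMB8 rose in DMS454, where it had 663, 686 and 698 normalized counts in the labelled CRISPR libraries, against 566, 544 and 535 in the labelled controls (log2 fold change 0.31 ± 0.065, adjusted p = 0.00514). The groups did not overlap, and the call held under all 13 alternatives, at 0.30 without labelled CRISPR replicate 3. In H1694 PSMB8 fell, with 359, 337 and 369 normalized counts in the labelled CRISPR libraries, against 458, 501 and 438 in the labelled controls (log2 fold change -0.39 ± 0.078, adjusted p = 0.00272). PSMB9 fell there as well, with 132, 113 and 110.1 normalized counts in the labelled CRISPR libraries, against 175, 165 and 164 in the labelled controls (log2 fold change -0.51 ± 0.12, adjusted p = 0.00869). Neither pair of groups overlapped, and both calls held under all 13 alternatives. PSMB10 was scarce in H1694, with 28 reads over the 3 labelled CRISPR libraries and 44 over the labelled controls, and its 6.75, 10.6 and 9.78 normalized counts in the labelled CRISPR libraries, against 16.6, 17.3 and 8.49 in the labelled controls overlapped (log2 fold change -0.55 ± 0.38, adjusted p = 0.354).

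In A549 the same subunits split. PSMB9 rose, with 243, 270.5 and 235 normalized counts in OE libraries, against 203, 194 and 215 in controls (log2 fold change 0.29 ± 0.096, adjusted p = 0.0132). PSMB10 fell, with 65.1, 59.6 and 67.3 normalized counts in OE libraries, against 89.1, 100.04 and 70.2 in controls (log2 fold change -0.42 ± 0.17, adjusted p = 0.0371). In both cases the groups did not overlap. The PSMB9 call was lost without OE replicate 2 (0.23) or control replicate 2 (0.25), and that of PSMB10 without OE replicate 1 (-0.43) or 2 (-0.37) or control replicate 1 (-0.39) or 2 (-0.30). In DESeq2 neither passed, at an adjusted p of 0.0505 for PSMB9 (range over alternatives 0.0108 to 0.105) and 0.11 for PSMB10 (range 0.0116 to 0.194). PSMB8 of A549 did not pass (log2 fold change -0.12 ± 0.088, adjusted p = 0.3). PSMB8 and PSMB9 of H1299 did not pass, the first at -0.066 ± 0.092 and the second at 0.25 ± 0.19. PSMB10 there had 36.6, 41.1 and 58.0 normalized counts in OE libraries, against 31.4, 21.5 and 25.0 in controls, without overlap (log2 fold change 0.77 ± 0.25, adjusted p = 0.0508). It passed without OE replicate 1 (0.90) or control replicate 1 (0.91), and without both it stood at 1.05, while PSMB9 then stood at 0.47 and passed. In DMS454 PSMB9 had 82.3, 86.6 and 57.8 normalized counts in the labelled CRISPR libraries, against 73.3, 73.3 and 66.7 in the labelled controls, with overlap (log2 fold change 0.067 ± 0.18, adjusted p = 0.838). Its lowest library was labelled CRISPR replicate 3, which stood apart over all genes. PSMB10 of DMS454 did not pass (log2 fold change 0.27 ± 0.20, adjusted p = 0.39).

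Set against the constitutive subunit that each replaces, per kilobase of transcript, PSMB8 reached 41.4% ± 3.30 of PSMB5 in the labelled CRISPR libraries of DMS454 and 30.6% ± 0.706 in the labelled controls (SD, n = 3 each). It was 7.62% ± 0.372 and 9.55% ± 0.480 in the labelled CRISPR libraries and labelled controls of H1694. The PSMB8 share therefore lay higher in every labelled CRISPR library of DMS454 and lower in every one of H1694 than in the labelled controls. In OE libraries and controls it was 31.0% ± 0.881 and 24.6% ± 1.02 in H1299, and 7.74% ± 0.499 and 8.30% ± 1.04 in A549. The H1299 groups did not overlap. PSMB8 itself did not pass there (log2 fold change -0.066 ± 0.092, adjusted p = 0.623), and PSMB5 fell (log2 fold change -0.40 ± 0.069, adjusted p = 0.00323). PSMB9 was 3.62% ± 0.400 of PSMB6 in the labelled CRISPR libraries and 5.20% ± 0.233 in the labelled controls of H1694, and 5.85% ± 0.408 and 4.74% ± 0.315 in OE libraries and controls of A549. In OE libraries and controls of H1299 it was 4.82% ± 1.01 and 3.43% ± 0.277, again without overlap. In labelled CRISPR libraries and labelled controls of DMS454 it was 4.94% ± 1.67 and 3.63% ± 0.2005, with overlap. With all libraries PSMB9 itself did not pass in either line. PSMB6 fell in H1299 (log2 fold change -0.22 ± 0.066, adjusted p = 0.0347). That call was lost in DESeq2 (-0.22) and when any 1 library was left out (-0.24 to -0.20). Without both libraries numbered 1 it was -0.21 and passed. In DMS454 PSMB6 did not pass (-0.31 ± 0.10, adjusted p = 0.0721), but without labelled CRISPR replicate 3 it was -0.45 and passed. PSMB10 stayed under 2.1% of PSMB7 in all 24 libraries. In H1694 the log2 fold changes of PSMB5, PSMB6 and PSMB7 themselves, which did not pass, were -0.064, 0.012 and -0.0083.

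**Figure D3:**
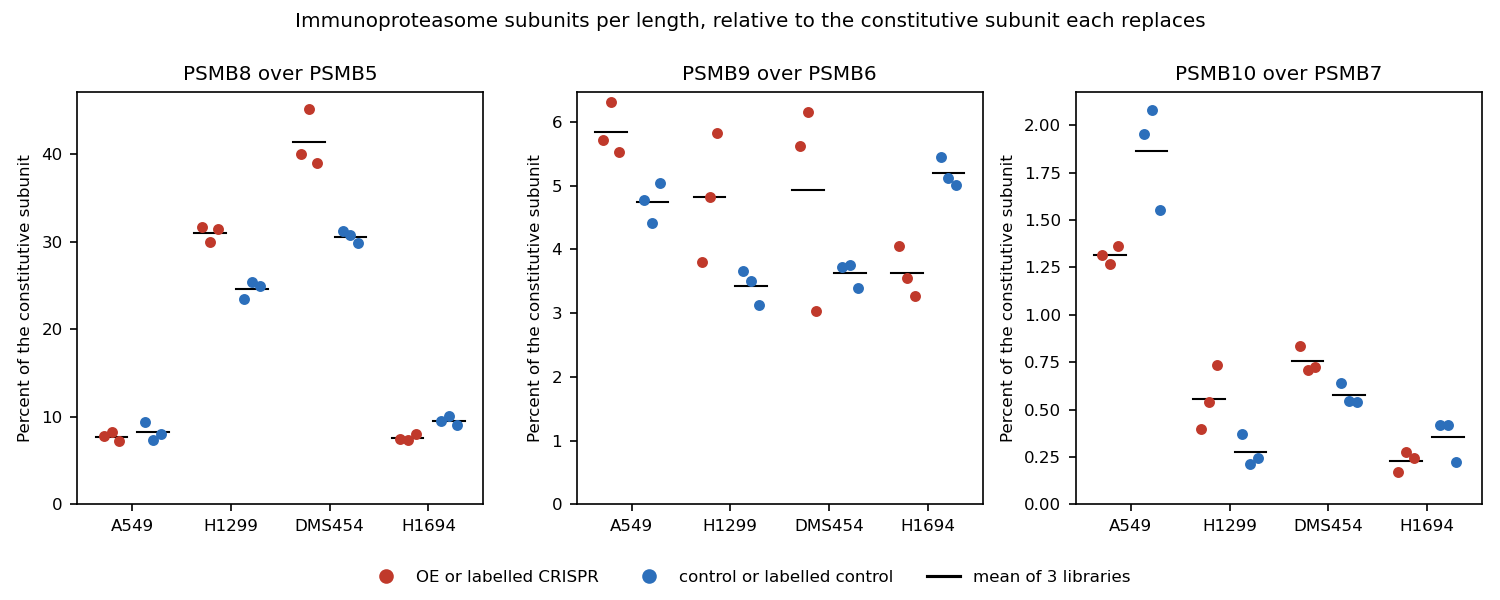
Each immunoproteasome subunit per kilobase as a percent of the constitutive subunit it replaces, per library, with bars for the mean of 3. PSMB8 over PSMB5 is highest in the labelled CRISPR libraries of DMS454 (41.4%) and under 11% in A549 and H1694. The labelled controls of DMS454 (30.6%) lie close to the OE libraries of H1299 (31.0%). The 3 panels have separate axes that start at 0.

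TAPBP, tapasin, changed in opposite directions in different lines. It fell in A549, with 1834, 1879 and 1968 normalized counts in OE libraries, against 2890.4, 2875 and 2851 in controls (log2 fold change -0.60 ± 0.041, adjusted p = 4.89e-17). The adjusted p was the lowest of the 10 genes in any line, the groups were far apart, and the call held under all 13 alternatives. In H1299 TAPBP rose, with 1519.9, 1882 and 1836 normalized counts in OE libraries, against 1432, 1133 and 1137 in controls (log2 fold change 0.50 ± 0.12, adjusted p = 0.0134). The OE libraries all lay above the controls, of which control replicate 1 was the highest. That call was lost without OE replicate 2 (0.45) or 3 (0.46) or control replicate 2 (0.45) or 3 (0.45), and without both libraries numbered 1 it was 0.71. TAPBP of H1694 fell, with 1040.0, 1071 and 1103 normalized counts in the labelled CRISPR libraries, against 1461, 1427 and 1361 in the labelled controls (log2 fold change -0.40 ± 0.051, adjusted p = 4.84e-05), and that of DMS454 did not pass (log2 fold change 0.061 ± 0.070, adjusted p = 0.591).

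TAP1 and TAP2, the 2 chains of the transporter, both fell in H1694. TAP1 had 427, 385 and 351 normalized counts in the labelled CRISPR libraries, against 541, 519 and 491 in the labelled controls (log2 fold change -0.42 ± 0.082, adjusted p = 0.00213). TAP2 had 272, 283 and 292 normalized counts in the labelled CRISPR libraries, against 347, 335 and 336 in the labelled controls (log2 fold change -0.26 ± 0.081, adjusted p = 0.0352). Neither pair overlapped. The TAP1 call held under all 13 alternatives, while that of TAP2 held under 6. It was lost without labelled CRISPR replicate 1 (-0.24) or 2 (-0.26) or labelled control replicate 1 (-0.25), 2 (-0.27) or 3 (-0.27), in DESeq2 (-0.27) and with no filter (-0.26), with adjusted p of 0.0292 to 0.117 over the alternatives. In H1299 the 2 genes parted. TAP2 fell, with 789, 748 and 680.0 normalized counts in OE libraries, against 1027, 982 and 1113 in controls (log2 fold change -0.49 ± 0.089, adjusted p = 0.00419), while TAP1 had 809, 883 and 792 normalized counts in OE libraries, against 900.5, 862 and 780.0 in controls, with overlap (log2 fold change -0.033 ± 0.088, adjusted p = 0.806). Without both libraries numbered 1, TAP2 stood at -0.55 and TAP1 at 0.03. Neither passed in A549 or DMS454, where the log2 fold changes were 0.12 and 0.12 for TAP1 and -0.002 and 0.21 for TAP2. TAP1 of A549 passed without OE replicate 2, at 0.19, and TAP2 of DMS454 without labelled CRISPR replicate 3, at 0.34.

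The trimming enzymes ERAP1 and ERAP2 lie side by side on chromosome 5 and are transcribed on opposite strands. ERAP2 had the largest fall of the 10 in H1694, with 201, 199 and 197 normalized counts in the labelled CRISPR libraries, against 304, 354 and 335 in the labelled controls (log2 fold change -0.73 ± 0.092, adjusted p = 4.86e-05). ERAP1 fell there too, with 723, 694 and 651 normalized counts in the labelled CRISPR libraries, against 854, 956 and 865 in the labelled controls (log2 fold change -0.37 ± 0.064, adjusted p = 8.08e-04). Both pairs of groups were apart, and both calls held under all 13 alternatives. In H1299 both rose. ERAP2 had 115, 100.86 and 89.6 normalized counts in OE libraries, against 55.0, 65.4 and 70.7 in controls (log2 fold change 0.67 ± 0.17, adjusted p = 0.0195), and ERAP1 had 1462, 1445 and 1413 normalized counts in OE libraries, against 1120.3, 1287 and 1208 in controls (log2 fold change 0.26 ± 0.078, adjusted p = 0.0354). The OE libraries lay above the controls for both. The ERAP2 call was lost without OE replicate 2 (0.67) or control replicate 2 (0.69). That of ERAP1 was lost when any 1 of the 6 libraries was left out (0.21 to 0.31), with adjusted p of 0.00751 to 0.187 over all its alternatives. Without both libraries numbered 1 the changes were 0.48 and 0.20, and both passed. In DMS454 ERAP1 rose alone, with 636, 663 and 562 normalized counts in the labelled CRISPR libraries, against 456, 422 and 533 in the labelled controls (log2 fold change 0.40 ± 0.095, adjusted p = 0.0106). The groups did not overlap, but the call was lost without labelled control replicate 1 (0.38) or 2 (0.33). Without labelled CRISPR replicate 3 it was 0.47 and passed. ERAP2 did not pass there (log2 fold change 0.12 ± 0.097, adjusted p = 0.413), and in A549 ERAP1 stood at -0.035 ± 0.061 and ERAP2 at -0.13 ± 0.20, neither of which passed.

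B2M, the most abundant of the 10 per kilobase in every line, fell in H1694, with 3686, 3615 and 3600.0 normalized counts in the labelled CRISPR libraries, against 4792, 4769 and 4678 in the labelled controls (log2 fold change -0.39 ± 0.039, adjusted p = 4.54e-06). Its libraries were tight within groups and far apart between them. In A549 B2M also fell, by less, with 3135, 2945 and 3048 normalized counts in OE libraries, against 3397, 3379.6 and 3248 in controls (log2 fold change -0.14 ± 0.039, adjusted p = 0.00409). Both calls held under all 13 alternatives. In DMS454 it had 7780.0, 7743 and 7889.6 normalized counts in the labelled CRISPR libraries, against 7960.2, 7827 and 7950.5 in the labelled controls, with overlap (log2 fold change -0.020 ± 0.036, adjusted p = 0.743). H1299 gave 8027, 6483 and 6561 normalized counts in OE libraries, against 5456, 6509.8 and 6845 in controls, where OE replicate 1 was the highest and control replicate 1 the lowest (log2 fold change 0.16 ± 0.11, adjusted p = 0.307). Without both of these the log2 fold change was -0.03.

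The heavy chains that pair with B2M are encoded by paralogous and highly polymorphic genes, so reads can be split or lost between them and their values are uncertain. In H1694 HLA-C fell, with 213 ± 9.57 normalized counts in the labelled CRISPR libraries and 273 ± 5.31 in the labelled controls (SD, n = 3 each; log2 fold change -0.35 ± 0.091, adjusted p = 0.0138). The call was lost without labelled CRISPR replicate 2 (-0.35) or labelled control replicate 2 (-0.35) or 3 (-0.34). HLA-B did not pass (log2 fold change 0.0071 ± 0.10, adjusted p = 0.973). HLA-E, a nonclassical chain, had 6 reads over the labelled CRISPR libraries and 6 over the labelled controls of H1694, and HLA-F 0 and 2. In DMS454 HLA-B (log2 fold change 0.33 ± 0.072), HLA-C (0.30 ± 0.052) and HLA-E (0.20 ± 0.044) rose. Without labelled CRISPR replicate 3 these were 0.42, 0.36 and 0.19, and all passed. In H1299 HLA-C rose (log2 fold change 0.61 ± 0.13), and without both libraries numbered 1 it was 0.86. In A549 HLA-E (-0.35 ± 0.043) and HLA-C (-0.20 ± 0.050) fell.

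The difference between lines was tested itself, as an interaction in limma over genes tested in both lines. Between DMS454 and H1694, 8 of the 10 genes differed in their change, where 20.2% of 15460 genes did (10.4% higher in DMS454 and 9.81% lower). The change in DMS454 was the more positive in all 8, and the difference was 0.85 ± 0.13, adjusted p = 3.04e-04 for ERAP2, 0.77 ± 0.12, adjusted p = 3.62e-04 for ERAP1 and 0.70 ± 0.099, adjusted p = 1.33e-04 for PSMB8. It was smallest for B2M (0.37 ± 0.047, adjusted p = 6.12e-05). TAP2 (0.48) was lost without labelled CRISPR replicate 1 (0.38) or 2 (0.45) or labelled control replicate 1 (0.47) or 2 (0.44) of DMS454, and without labelled CRISPR replicate 2 (0.48) or labelled control replicate 1 (0.46), 2 (0.49) or 3 (0.48) of H1694. PSMB9 and PSMB10 did not pass, although PSMB9 did without labelled CRISPR replicate 3 of DMS454 (0.76) and PSMB10 without labelled control replicate 3 of H1694 (1.13). Between A549 and H1299, 6 of the 10 differed, where 41.2% of 14578 genes did (22.7% higher in A549 and 18.5% lower). The change in A549 was the lower for PSMB10 (-1.18 ± 0.30, adjusted p = 0.00621), NLRC5 (-1.11 ± 0.30, adjusted p = 0.00814), TAPBP (-1.10 ± 0.13, adjusted p = 1.63e-05), ERAP2 (-0.80 ± 0.24, adjusted p = 0.014) and ERAP1 (-0.29 ± 0.091, adjusted p = 0.019), and the higher for TAP2 (0.49 ± 0.11, adjusted p = 0.00245). ERAP1 was lost without OE replicate 1 (-0.27) or control replicate 1 (-0.26) of A549, and B2M passed without OE replicate 2 (-0.35) or control replicate 3 (-0.37) of H1299.

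The counts on the other lists in H1694 stand beside 8.9% of all genes fallen and 8.73% risen. There 2 of 7 partners of class I loading fell, among them the chaperone calreticulin, CALR (log2 fold change -0.15 ± 0.041). CALR was lost without labelled CRISPR replicate 2 (-0.13) or 3 (-0.13) or labelled control replicate 1 (-0.14) or 2 (-0.15). Of 11 other subunits of the proteasome core 1 fell, and of 7 activators and assembly factors 1 fell, PSME2, a subunit of the interferon-inducible activator PA28 (log2 fold change -0.25 ± 0.044, adjusted p = 9.34e-04). Of 9 genes of interferon-gamma signalling 2 rose and 3 fell. The signal transducer STAT2 (log2 fold change -0.36 ± 0.069, adjusted p = 0.00185) and the transcription factor IRF1 (log2 fold change -0.33 ± 0.071, adjusted p = 0.00464) were among those that fell, while the kinase JAK1 (log2 fold change 0.44 ± 0.043, adjusted p = 3.68e-06) and SOCS1, an inhibitor of that signalling (log2 fold change 0.97 ± 0.17, adjusted p = 9.24e-04), rose. Of 12 factors that bind class I promoters, 2 fell, IRF1 among them, and 1 rose, NFYB (0.26 ± 0.056).

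In A549, where 21.9% of all genes fell and 22.5% rose, 3 of 7 loading partners fell, among them TAPBPL, a relative of tapasin that edits peptides (log2 fold change -0.65 ± 0.15, adjusted p = 2.51e-04), and PDIA3 (-0.21 ± 0.036), a disulfide isomerase of the loading complex. Both PA28 subunits fell, PSME1 (-0.33 ± 0.043) and PSME2 (-0.26 ± 0.043), and the other 2 activators PSME3 (0.26 ± 0.036) and PSME4 (0.20 ± 0.045) rose. Of 9 interferon-gamma signalling genes 1 rose, JAK1 (0.63 ± 0.038), and 4 fell, among them both receptor chains IFNGR1 (-0.34 ± 0.067) and IFNGR2 (-0.44 ± 0.057). The class II peptide exchange genes HLA-DMB (-3.11 ± 0.096) and HLA-DMA (-1.66 ± 0.15) fell, the largest changes on these lists in A549. In H1299 the PA28 subunit PSME1 rose (log2 fold change 0.58 ± 0.070, adjusted p = 6.51e-04) and PSME3 (-0.65 ± 0.070) fell, as 1 of 7 that rose and 4 of 7 that fell, and 4 of 12 promoter factors fell, among them NFKB1 (-0.49 ± 0.070), and 1 rose, where 15.3% of all genes fell and 13.5% rose. Without both libraries numbered 1, PSME1 was 0.59, PSME3 -0.69, NFKB1 -0.54 and the subunit PSMB5 -0.41. In DMS454 1 of 9 interferon-gamma genes rose and 1 fell, where 9.15% of all genes rose and 9.72% fell.

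Markers of other cell types were summed in each library. Of 8 immune cell markers, PTPRC, CD3E, CD3D, MS4A1 and NKG7 had at most 2 reads in any small cell group and are not listed in the A549 and H1299 tables. The 8 together reached 3.73 to 4.46 RPM in OE libraries and 5.08 to 5.83 in controls of A549, 2.36 to 2.96 and 3.98 to 4.62 in those of H1299, 1.79 to 2.27 in labelled CRISPR libraries and 1.81 to 2.36 in labelled controls of DMS454, and 0.447 to 0.611 and 0.315 to 0.711 in those of H1694. The 4 mesenchymal markers summed to 1196 to 1246 RPM in OE libraries and 903 to 922 in controls of A549, and to 6110.0 to 6558 and 3236 to 3615 in those of H1299. In DMS454 they summed to 385 to 409 in labelled CRISPR libraries and 288 to 315 in labelled controls, and in H1694 to 179 to 204 and 178 to 196. The 5 epithelial markers summed to 9715 to 10047 RPM in OE libraries and 10825 to 11051 in controls of A549. Of these 5, 4 fell there, among them the adhesion genes EPCAM (-1.01 ± 0.079) and CDH1 (-0.74 ± 0.049), and 1 rose. In A549 21.9% of all genes fell and 22.5% rose. The epithelial markers summed to 841 to 973 and 929.7 to 1107 in OE libraries and controls of H1299, to 2632 to 2757 and 2596 to 2639 in labelled CRISPR libraries and labelled controls of DMS454, and to 10.6 to 12.2 and 11.2 to 12.7 in those of H1694. Of 6 endothelial and fibroblast markers H1694 expressed CDH5, and the sum was 149.95 to 156 RPM in its labelled CRISPR libraries and 131 to 134 in its labelled controls. The part of these genes in the results was not tested.

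Levels in control cells were compared between the 2 small cell and the 2 non-small cell lines on a common scale, RPM. This is a description without a test, since 2 lines stand for each class. NLRC5 and ERAP2 were higher and TAP1 and TAP2 lower in the small cell lines, by at least 2-fold and with all 6 libraries of a class on one side. Of 16149 genes, 12.6% were higher and 8.33% lower by the same rule. NLRC5 had 8.49, 9.49 and 9.58 RPM in the labelled controls of DMS454 and 13.7, 12.2 and 14.3 in those of H1694, against 2.30, 2.28 and 2.61 in controls of A549 and 2.26, 1.51 and 1.25 in those of H1299. The mean of the small cell lines was 5.39-fold that of the others. Further levels are means ± SD (n = 3). ERAP2 was 4.29-fold higher, at 12.6 ± 0.707 and 13.9 ± 1.06 RPM in DMS454 and H1694, whose libraries overlapped, against 2.54 ± 0.295 in A549 and 3.56 ± 0.410 in H1299. TAP1 had 13.9 ± 1.29 and 21.7 ± 1.05 RPM in DMS454 and H1694, against 33.5 ± 1.13 and 47.5 ± 4.16 in A549 and H1299 (log2 difference -1.20). For TAP2 the values were 10.8 ± 0.520 and 14.2 ± 0.277, against 15.6 ± 0.242 and 58.2 ± 2.71 (log2 difference -1.28). A549 was thus close to the small cell lines for TAP2, and H1299 was far above all 3. The median over all genes was 0.17 on this scale, and -0.02 under TMM scaling, which gave 2.25 for NLRC5, 1.92 for ERAP2, -1.38 for TAP1 and -1.47 for TAP2.

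The other 6 genes did not divide the classes. B2M had 364 ± 2.77 RPM in DMS454 and 199 ± 2.53 in H1694, against 168 ± 4.34 in A549 and 351 ± 37.4 in H1299, and the libraries of DMS454 and H1299 overlapped. TAPBP was highest in A549 (145 ± 2.23), overlapped between H1299 (69.1 ± 10.1) and DMS454 (65.2 ± 2.58) and was lowest in H1694 (59.3 ± 2.12). ERAP1 ran from 21.6 ± 2.57 in DMS454, 31.9 ± 1.67 in A549 and 37.4 ± 2.36 in H1694 up to 67.4 ± 4.98 in H1299, with no overlap between neighbours. PSMB8 was likewise ordered without overlap as A549 (15.002 ± 1.56), H1694 (19.5 ± 1.35), DMS454 (25.2 ± 0.735) and H1299 (31.4 ± 2.37). PSMB9 had a different order, DMS454 (3.27 ± 0.178), H1299 (4.83 ± 0.542), H1694 (7.04 ± 0.262) and A549 (10.3 ± 0.605). PSMB10 was lowest in H1694 (0.591 ± 0.205), overlapped between H1299 (1.45 ± 0.286) and DMS454 (1.74 ± 0.221) and was highest in A549 (4.35 ± 0.726).

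Per kilobase of transcript, B2M reached 214 ± 1.63 RPKM (RPM per kilobase) in DMS454 and 116.63 ± 1.48 in H1694, against 98.8 ± 2.54 in A549 and 206 ± 22.0 in H1299. HLA-C was 171 ± 2.15 in DMS454 and 7.44 ± 0.148 in H1694, against 40.8 ± 0.442 and 63.2 ± 11.5 in A549 and H1299. The 2 small cell lines thus lay at the 2 ends for HLA-C, DMS454 above and H1694 below both non-small cell lines. HLA-B was low in H1694 (6.07 ± 0.426) and A549 (3.60 ± 0.817), against 96.8 ± 1.76 in DMS454 and 100.70 ± 10.2 in H1299. NLRC5 was the least abundant of the 10 per kilobase in A549 and H1299, at 0.352 ± 0.0274 and 0.245 ± 0.0769, and PSMB10 in H1694, at 0.486 ± 0.168.

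**Figure D4:**
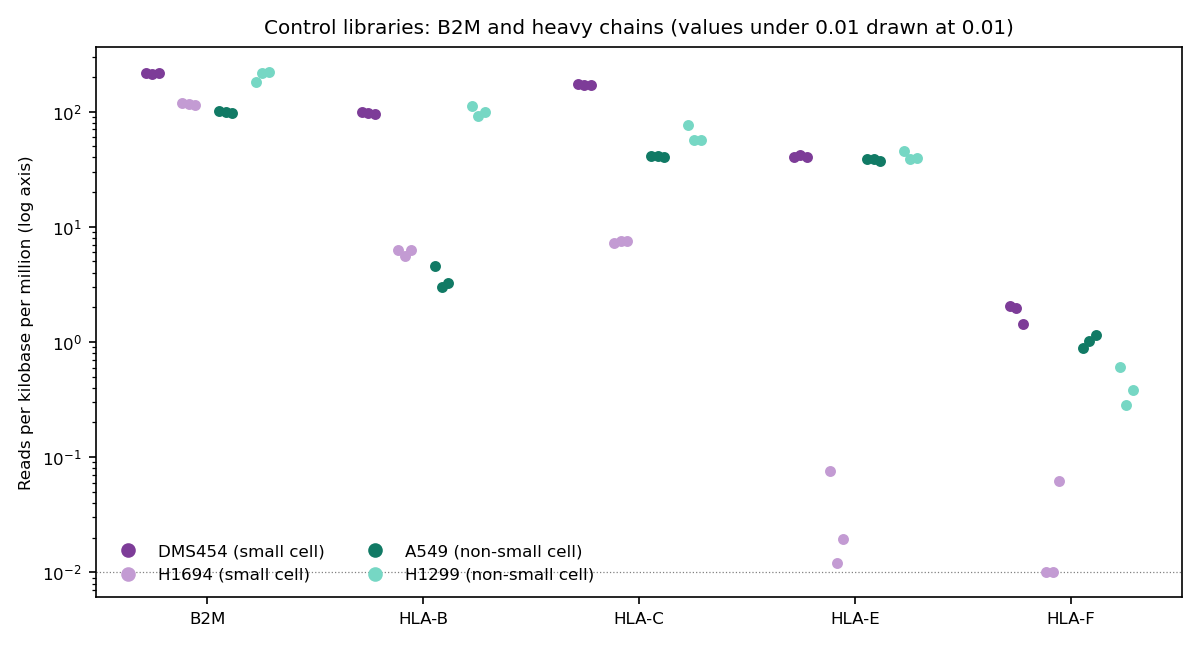
Control libraries: B2M and the heavy chains HLA-B, HLA-C, HLA-E and HLA-F in RPKM (log axis), 3 points per line, with values under 0.01 drawn at 0.01. DMS454 has the highest HLA-C of the 4 lines, whereas in H1694 HLA-E and HLA-F stay under 0.1.

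Over the 24 libraries, the genes with the level pattern most like NLRC5 were CDK5 (Pearson r = 0.962 on log2(RPM + 1)), CRTC1, SYNE2, APBA1 and STX1A, the fifth at 0.955. For TAP1 they were RAB31 (0.981), RUSC2, SYDE1, MSRA and IMPDH2, and for PSMB9 CUEDC1 (0.956), MYLK, RAB10, HCFC1R1 and TP53I3. The 24 points share 4 lines, and 234, 419 and 81 of 14991 genes reached an r of 0.9 with NLRC5, TAP1 and PSMB9.

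Some reads of these genes may belong to others. PSMB10 shares 644 exon bases (34.8%) with AC040162.1 on the same strand. Over all libraries of a line, AC040162.1 had 276 reads in DMS454 and 173 in H1694, against 265 and 72 for PSMB10. In A549 and H1299 it had 188 and 128, against 458 and 219. The part of this overlap in the PSMB10 levels was not tested. PSMB8 shares 618 bases (20.6%) with PSMB8-AS1 and 139 with PSMB9, both on the opposite strand. TAP1 shares 456 with PSMB8-AS1 and ERAP1 299 with CAST, again on the opposite strand. TAP2 shares 2064 bases (32.3%) with AL669918.1 and PSMB9 174 with PSMB8-AS1 on the same strand. The libraries are stranded, but whether strand was used in counting is not given in the sources used here. B2M, TAPBP, ERAP2 and NLRC5 share no exon bases with another gene in GENCODE 29.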

How the data were processed

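RNA sequencing libraries of 4 lung cancer lines were grouped by their titles into 8 groups of 3. Per the submitters' processing notes, CASAVA, FastQC, Trim Galore, STAR, DESeq2 and hg38 were used; no versions are listed, and the counter, its annotation and its strand setting are not stated. What each library's deposited column and the mean column hold is a signal, namely counts that the authors divided by size factors. Fold changes in the authors' comparisons, with their errors, are log2 values, the p-values that the authors deposited are raw and adjusted ones per the file headers, and the deposited test statistic is a score. These comparison columns were used only for HEPACAM2.

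Within each line, limma tested every gene whose mean reached 10 normalized counts in 1 group (version 3.58.1, trend and robust, in R 4.3.3) on log2(value + 1), with Benjamini-Hochberg adjustment over all genes tested and a threshold of 0.05. Differences between lines were interaction terms over 12 libraries. Whole reads were recovered for 100% of values within 0.01, and on these edgeR 4.0.16 and DESeq2 1.42.0 were run as alternatives; they also gave RPM (reads scaled to a common library total), and RPKM by the principal transcript of GENCODE 29. Genes on PAR_Y (45 in each small cell table) were left out. On simulated data, limma recovered 98% to 100% of genes changed 2-fold and 72% to 89% of those changed 1.5-fold. Folds on this log2 scale understate the change of low genes.

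The 10 genes, the pathway and marker lists and the tests were chosen with earlier results of these data known. Named were all 10 genes and HEPACAM2; of each other list, up to 4 called genes with the largest change and a mean of at least 50, or the 2 most abundant where none was called, of which the text gives part; and the 5 genes most correlated with NLRC5, TAP1 and PSMB9. HLA-B, HLA-F and PSMB7 in H1694 are given outside that rule, chosen after their values were seen, as are HLA-E in H1694 and the control levels of the heavy chains. A gene on these lists is not reported here. Correlations between the deviations of same-numbered libraries were -0.54 to 0.12, so the numbers were not taken as pairs. The lowest was that of the H1299 libraries numbered 1, which deviated in opposite directions.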

Additional observations from a re-analysis of the deposited data

Results flagged for a closer look

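The change of 14 gene and line pairs differed between lines by the interaction test (limma, adjusted p under 0.05). These were 8 of the 10 genes between DMS454 and H1694, where 20.2% of all genes tested differed. Between A549 and H1299 they were 6 of the 10, where 41.2% of all genes tested differed. For DMS454 minus H1694 the difference in log2 fold change was 0.37 for B2M, 0.54 for TAP1, 0.48 for TAP2, 0.46 for TAPBP, 0.77 for ERAP1, 0.85 for ERAP2, 0.70 for PSMB8 and 0.66 for NLRC5. For A549 minus H1299 it was 0.49 for TAP2, -1.10 for TAPBP, -0.29 for ERAP1, -0.80 for ERAP2, -1.18 for PSMB10 and -1.11 for NLRC5.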

How the results depend on the processing

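With 3 libraries a group, small changes are at the limit of detection, and PSMB10 in H1694 rests on 28 and 44 reads. The number of the 10 genes that fell in H1694 was 9 in limma and 7 to 9 over the alternatives, those with 1 library left out included. The number with a tested difference was 8 under every other setting between DMS454 and H1694 (7 to 9 with a library left out), and 5 to 6 between A549 and H1299 (5 to 7). In A549, 1 gene rose in limma, 2 in edgeR and 0 in DESeq2 (0 to 2 with a library left out). With any 1 library left out, 1 to 4 genes rose in H1299 and 1 to 4 in DMS454. Over all genes, those left-out fits gave 1248 to 2603 risen and 1389 to 2826 fallen genes in H1299 (2181 and 2484 with all), 947 to 3159 and 1017 to 3446 in DMS454 (1726 and 1834), and 918 to 2253 and 900 to 2257 in H1694 (1552 and 1582). Without both H1299 libraries numbered 1, 4383 genes rose and 4539 fell, B2M turned to -0.033 and TAP1 to 0.028; the cause was not tested. With the replicate number as a block, 806 genes rose and 828 fell in H1299, and of the 10 genes 1 rose and 0 fell. The calls of TAP2 (adjusted p = 0.053, and 1.95e-06 to 0.053 over its alternatives), TAPBP, ERAP1, ERAP2, HLA-C, PSMB5 and PSMB6 were lost. Their adjusted p ran up to 0.215 (limma). In the other lines the block left the counts within 1.5 times, and NLRC5 passed in DMS454 (0.34). Some changes near 0 turned sign with 1 library left out, over ranges of -0.045 to 0.022 for TAP2, -0.045 to 0.021 for PSMB5 and -0.0236 to 0.00078 for PSMB6 in A549, -0.091 to 0.012 for TAP1 in H1299, -0.022 to 0.12 for TAPBP, -0.041 to 0.25 for PSMB9 and -0.088 to 0.025 for HLA-DMA in DMS454, -0.012 to 0.033 for PSMB6 in H1694, and -0.092 to 0.027 for PSMB8 and -0.11 to 0.20 for PSMB9 in the A549 minus H1299 difference.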
